A study of Mus musculus with 16 samples.

Results

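The epithelial surface genes Epcam, Cdh1, Cdh3, Spint1, Spint2 and St14 were followed in a map of H3K27me3 from mouse metaplastic breast tumour cells. They are 6 of the 21631 protein-coding genes annotated on the mouse autosomes and X. The list names epithelial surface genes and was chosen with earlier results on the peaks of the same libraries known, so the overlap of peaks with these genes is given as a description, without tests. The cells, named CCN6KOT, come from a breast tumour labelled spindle metaplastic that lacks CCN6, and the labels call them both primary cells and a cell line. All groups share this knockout and a puromycin selection. Control cells received a control lentivirus (PPGS in the labels, whose design text calls them parental), and the others were transduced with dnTCF4, which the design text describes as dominant negative towards beta-catenin. TCF4 is a transcription factor through which beta-catenin acts. H3K27me3 was mapped by ChIPmentation, immunoprecipitation followed by tagmentation on the beads, in 4 libraries per group. The 8 IgG libraries were not analysed here. The labels do not say whether the libraries of a group came from separate cultures, so the spread between them may be technical. Peaks of a histone mark hold no expression values, so the labelled cell type was not checked by markers.

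H3K27me3 is a mark of silenced genes, written by EZH2 within Polycomb repressive complex 2. Epithelial cells hold together through E-cadherin (Cdh1) and, in basal layers, P-cadherin (Cdh3), calcium-dependent adhesion proteins tied to the catenins inside the cell. EpCAM is a calcium-independent adhesion protein of epithelia. St14 encodes matriptase, a membrane serine protease of epithelial surfaces, and Spint1 and Spint2 encode its Kunitz-type inhibitors HAI-1 and HAI-2. Loss of E-cadherin is a hallmark of the passage from an epithelial to a mesenchymal state, and spindle metaplastic tumours have a mesenchymal look.

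Each gene was examined over its annotated body plus 2 kb on each side. The 2 kb on either side of an annotated gene end are called an end, and the rest of the body the interior. The covered share is the percentage of this window lying under peaks, a value per length. Sequencing depth is unknown because peak lists hold no reads. The lists held 426, 738, 54070 and 22745 peaks in control 1 to 4, and 21492, 191, 4885 and 1838 peaks in dnTCF4 1 to 4. A missing peak in a short list does not show a missing mark.

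The annotated start was known for 3 of the 6 genes from the RefSeq promoter windows (GRCm38.p6, the assembly of mm10), which run from 250 bases before to 50 bases after the start. They are printed 5′ to 3′ on the strand of the gene because peaks at these genes stood in different relations to the start. The Epcam window lay wholly under a peak in control 3 and dnTCF4 1, the Spint1 window lay between flanking peaks and was under none, and the Spint2 window was under none in any library. Capitals mark the E-box CACCTG on either strand (CAGGTG on the other), the sequence that Snail and Zeb repressors bind in the E-cadherin promoter.
Epcam, chr17:87635729-87636028, forward strand: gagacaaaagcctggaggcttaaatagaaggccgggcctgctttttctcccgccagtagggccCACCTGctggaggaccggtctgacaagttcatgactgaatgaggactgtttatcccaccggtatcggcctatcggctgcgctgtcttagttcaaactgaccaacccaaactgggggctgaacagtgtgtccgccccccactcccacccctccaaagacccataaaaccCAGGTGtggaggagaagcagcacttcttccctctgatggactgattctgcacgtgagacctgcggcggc
Spint1, chr2:119237110-119237409, forward strand: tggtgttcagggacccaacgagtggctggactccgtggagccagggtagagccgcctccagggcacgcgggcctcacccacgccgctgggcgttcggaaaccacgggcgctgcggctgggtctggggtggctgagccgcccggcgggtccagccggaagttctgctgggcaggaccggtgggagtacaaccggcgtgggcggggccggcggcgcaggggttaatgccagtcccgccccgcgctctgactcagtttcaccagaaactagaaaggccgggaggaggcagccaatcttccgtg
Spint2, chr7:29281928-29282227, reverse strand: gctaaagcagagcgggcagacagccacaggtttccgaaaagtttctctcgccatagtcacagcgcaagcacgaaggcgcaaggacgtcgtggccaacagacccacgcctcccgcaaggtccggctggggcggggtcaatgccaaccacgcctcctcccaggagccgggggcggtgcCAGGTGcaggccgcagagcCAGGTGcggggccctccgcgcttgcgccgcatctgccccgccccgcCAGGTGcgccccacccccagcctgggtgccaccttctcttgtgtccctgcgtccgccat

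The Epcam window held 2 E-boxes, the Spint2 window 3 and the Spint1 window 0. Of 32619 promoter windows of the same length, 20.3% held at least 1. The TCF motif CTTTGAT, searched on both strands (ATCAAAG on the other), was in 0 of these 3 windows and in 3.76% of all windows. CpG dinucleotides numbered 11 at Epcam, 28 at Spint1 and 26 at Spint2, where the median of all windows was 7. These matches describe letters in the windows only. Cdh1, Cdh3 and St14 were not in the promoter table, and their ends are called the lower and the higher end by coordinate.

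Epcam carried H3K27me3 peaks in all 8 libraries, Spint1 in 5, Cdh1 and St14 in 3, and Cdh3 and Spint2 in 1 each. A peak in all 8 libraries was found at 20 of 21631 genes (0.0925%), a peak in at least 5 libraries at 2.31% and a peak in at least 1 library at 21.4%. Control 1, control 2 and dnTCF4 2, the shortest lists, each marked 1 of the 6 genes, and it was Epcam in every case. These lists marked 0.675%, 1.06% and 0.254% of all genes. Control 3 marked 5 genes, all but Spint2, where it marked 20.1% of all genes. Control 4 marked Epcam, Cdh1, Spint1 and St14, where it marked 12.5% of all genes. dnTCF4 1 marked 5 genes, all but Cdh3, where it marked 13.7% of all genes. dnTCF4 3 and dnTCF4 4 each marked 2, Epcam and Spint1, where they marked 5.13% and 2.41% of all genes. Summed over libraries, this makes 11 of 24 gene and library pairs in control cells and 10 of 24 with dnTCF4. Control 3 and control 4 gave 5 and 4 of the control pairs, and dnTCF4 1 gave 5 of the others. The genes are not replicates and the lists differ in length, so these sums do not compare the groups.

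Between control and dnTCF4 libraries, the covered share of the 6 genes overlapped in every case. Over all 4626 genes with a peak in at least 1 library, the two-sided exact permutation test with Benjamini-Hochberg adjustment called 0 genes (0% of those tested). It gave 1 gene at an unadjusted p under 0.05, and Fisher's exact test of the number of libraries gave 0. With 70 assignments of the libraries the smallest possible p is 0.0286, so the count of 0 says nothing of whether the groups differ.

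**Figure D1:**
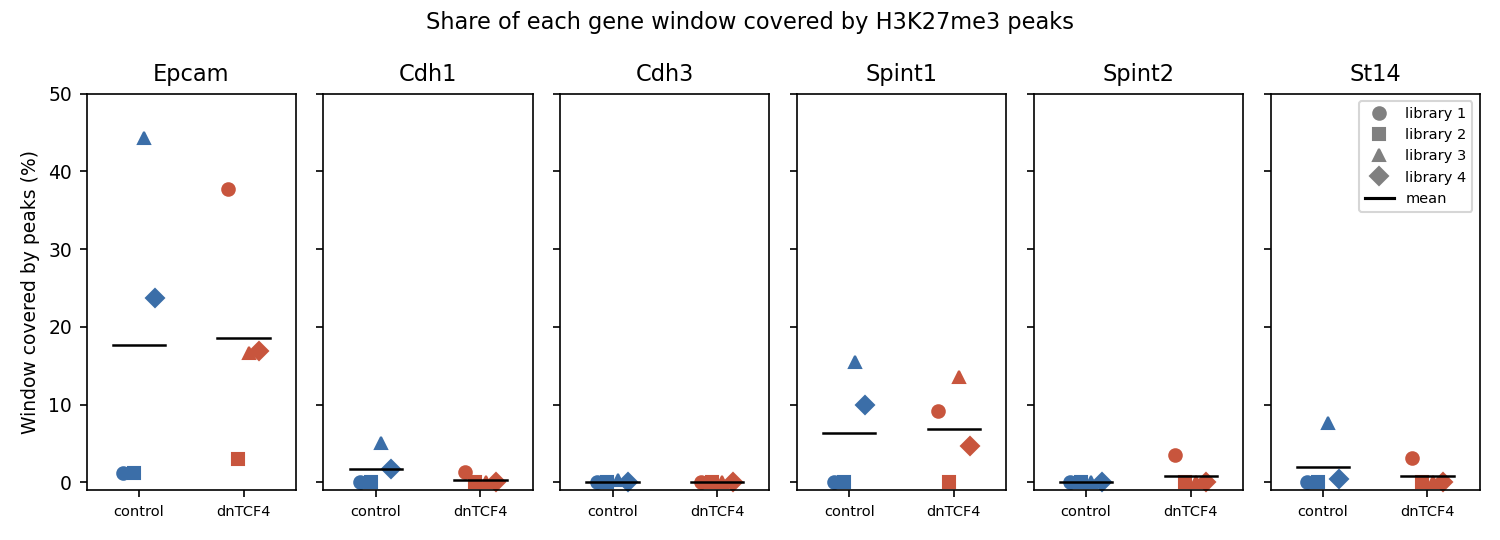
Share of each gene window (body plus 2 kb on each side) covered by H3K27me3 peaks, in percent, for the 6 genes. Each symbol is 1 library, with shapes for library numbers 1 to 4, control libraries in blue and dnTCF4 libraries in red, and the bar is the mean of the 4 libraries. Epcam is above 0 in all 8 libraries and reaches 44.3% in control 3, and Cdh3 and Spint2 are at 0 in 7 libraries.

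Epcam (gene ID 17075, chromosome 17, 87635979 to 87651127, forward strand) was the most fully covered of the 6. Peaks covered 1.14%, 1.22%, 44.3% and 23.8% of its window in control 1 to 4. They covered 37.7%, 2.97%, 16.6% and 16.9% in dnTCF4 1 to 4. The long lists were high and the 3 shortest lists low in either group, and the groups overlapped. The means were 17.6 ± 20.8% for control and 18.5 ± 14.3% for dnTCF4 (SD, n = 4 each), a difference of 0.931 percentage points that is smaller than either SD. Over 15 alternatives it ran from -5.44 to 13.6. It turned to -4.56 without control 1, -4.54 without control 2, -5.44 without dnTCF4 1 and -0.345 with the window extended by 5 kb.

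In dnTCF4 2, whose list held 191 peaks, 2 of them lay inside Epcam. That is 1.05% of the list, for a window whose covered share was 605 times that of the annotated genome in the same library. The ratio was 516 in dnTCF4 4 and 148 in dnTCF4 3, and 124, 80.2, 22.1 and 38.4 in control 1 to 4. It was 59.6 in dnTCF4 1. Longer lists cover more of the genome, so this ratio is lower in them at a given covered share. Ranked by covered share among marked genes, Epcam was 9th of 55 genes in dnTCF4 2, 8th of 521 in dnTCF4 4, 60th of 1109 in dnTCF4 3 and 87th of 2962 in dnTCF4 1. In control libraries it ranked 68th of 146, 85th of 229, 208th of 4344 and 162nd of 2696.

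The 25 Epcam peaks fell into 4 stretches, and the gene beyond 11.0 kb carried none in any library. The first stretch, from -1.84 to 0.334 kb relative to the start (87634139 to 87636313), had peaks in control 1, control 3, control 4, dnTCF4 1 and dnTCF4 3. Only in control 3 and dnTCF4 1 did its peaks reach across the start, to 0.328 and 0.334 kb inside the gene, and in the other 3 libraries they ended upstream of it. The second, from 1.33 to 4.07 kb (87637313 to 87640052), had peaks in 2 control and 3 dnTCF4 libraries. The third and shortest, from 5.41 to 6.08 kb (87641393 to 87642059), had a peak in control 3 and in all 4 dnTCF4 libraries. The control libraries without it were control 1 and control 2, with lists of 426 and 738 peaks, and control 4, with 22745. This split was seen after the fact and was not tested. The fourth, from 7.26 to 11.0 kb (87643242 to 87647006), had peaks in 7 libraries, all but control 1.

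Within each of the first 3 stretches a core of 167 to 219 bases was shared by 5 libraries. In the fourth, a core of 166 bases beginning 8.83 kb inside the gene (87644811 to 87644976) lay under peaks of all 7. The annotation used here gives gene ends only, so it does not say which exons or introns these stretches hold. No library had a peak between 0.334 and 1.33 kb, between 4.07 and 5.41 kb or between 6.08 and 7.26 kb. These gaps are what the peaks of all 8 libraries together left bare, and single libraries differed within them: control 4 had no peak from 2.88 to 7.67 kb.

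**Figure D2:**
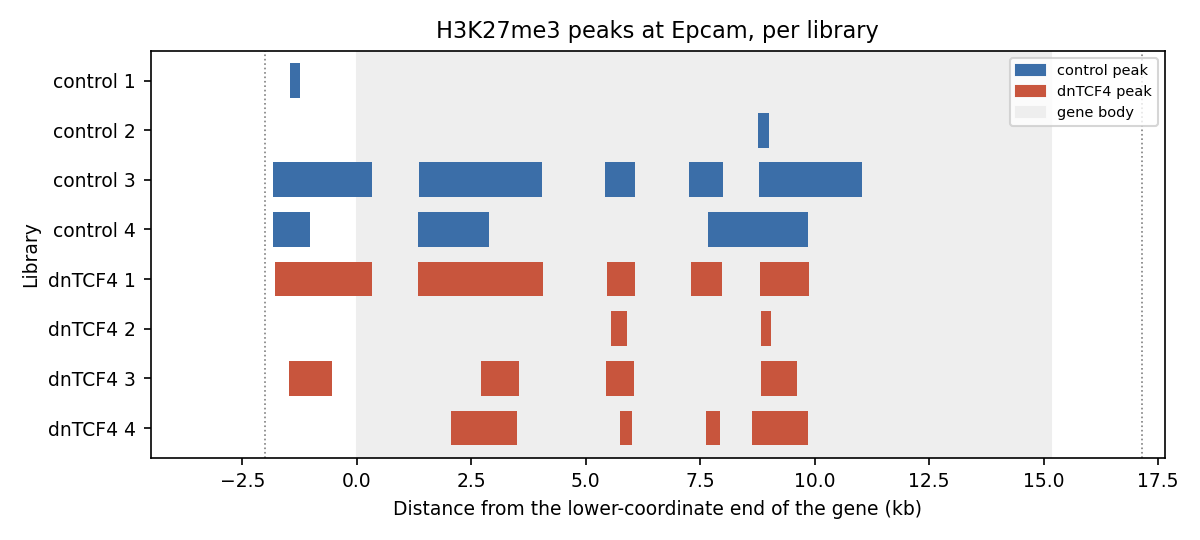
H3K27me3 peaks at Epcam in each library. The x axis is the distance in kb from the lower-coordinate end of the gene, which is its start, grey marks the gene body and dotted lines the window of 2 kb on each side, and bars are the deposited peaks of control (blue) and dnTCF4 (red) libraries. Peaks of all libraries joined together form 4 stretches, so every peak falls within one by construction. The single peak of control 1 is in the first and that of control 2 in the fourth. The 2 peaks of dnTCF4 2 are in the third and the fourth.

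Of the 25 Epcam peaks, 17 were interior, 5 at the start end and 3 spanned both. None lay at the far end. Their deposited fold enrichment over background ran from 2.81 to 5.56, and 18 of 25 exceeded the median fold of their own list. In control 3 the peak from 7.26 to 7.99 kb had a fold enrichment of 4.29, above 99.7% of that list. In dnTCF4 1 the peak from 1.35 to 4.07 kb had 4.61, above 98.4% of that list, and in dnTCF4 4 the peak from 7.62 to 7.94 kb had 5.56, above 92.6%. The peaks of control 1 and control 2, at 4.36 and 4.40, exceeded 35.9% and 31.7% of their lists. The Epcam peaks of the 3 shortest lists were weak by significance, with −log10 q between 1.12 and 1.61, and 5 libraries kept a peak under a minimum of 2.

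**Figure D3:**
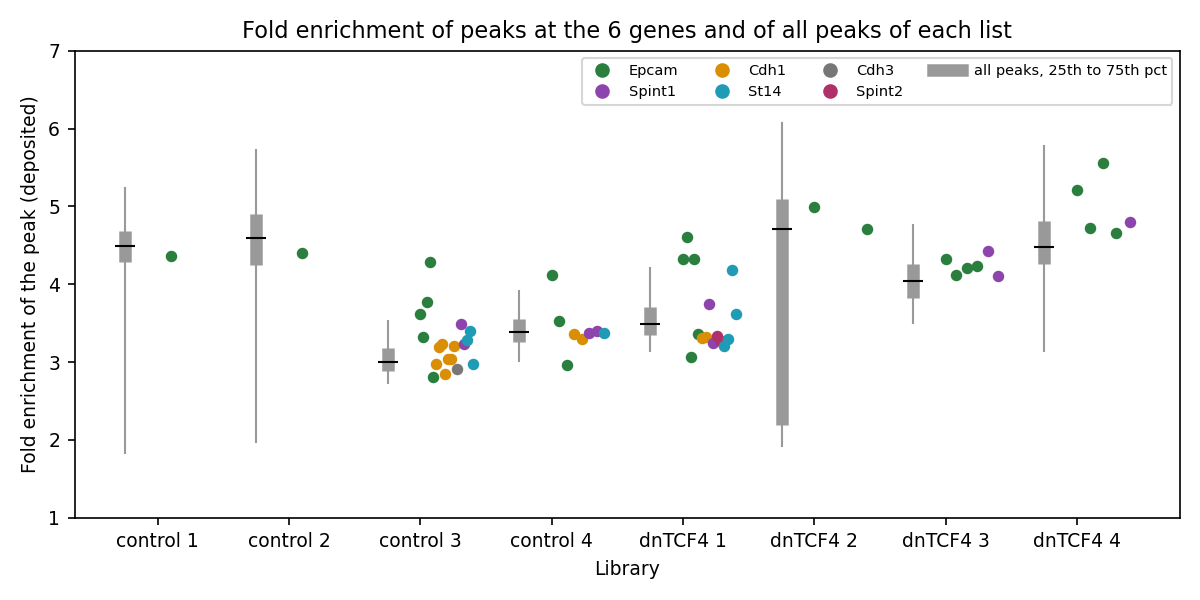
Deposited fold enrichment of every peak at the 6 genes (points, coloured by gene) beside all peaks of the same list (grey, thick bar 25th to 75th percentile, thin line 5th to 95th percentile, black tick median), per library. Epcam peaks reach 4.29 in control 3 and 5.56 in dnTCF4 4, above the thick bar of their lists, while Cdh1 peaks lie between 2.85 and 3.36.

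The nearest protein-coding gene on the lower side of Epcam, Calm2 at 189 kb, had no peak in its window in any library. Just outside the Epcam window, control 3, control 4 and dnTCF4 1 had a further peak 0.943, 1.52 and 1.49 kb below it. In the other 5 libraries the nearest peak below lay between 697 and 702 kb away. Chromosome 17 as a whole held 5.71% to 11.0% of the covered length of each control list and 6.69% to 8.85% of each dnTCF4 list, where it makes up 3.61% of the annotated length. The first 10 Mb of chromosome 9, which hold a block of matrix metalloproteinase genes, take up much of the short lists. With that block set aside, a choice made after the values were seen, chromosome 17 held 5.75% to 19.3% of control and 6.79% to 23.97% of dnTCF4 lists. Of its 1059 genes, 1.23%, 1.70%, 21.4% and 15.2% were marked in control 1 to 4 and 18.0%, 0.567%, 8.404% and 3.68% in dnTCF4 1 to 4, each above the share of all genes marked in that library. The part of the chromosome in the Epcam result was not tested.

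Of the 5 lists with at least 1000 peaks, each was also reduced to its 1838 most significant peaks, the length of the shortest of them. Epcam was 1 of 150 genes (0.693% of all) with a peak in all 5 reduced lists. With all 8 lists reduced to the 191 peaks of the shortest, Epcam had a peak in 1 library, dnTCF4 2, and 5 genes had one in all 8. In the 5 lists of 1838 peaks, Spint1 had a peak in 3, St14 in 1, and Cdh1, Cdh3 and Spint2 in 0. The covered share of Epcam in these 5 lists was 7.19% in control 3 and 4.30% in control 4. It was 28.8%, 12.2% and 16.9% in dnTCF4 1, 3 and 4. The 3 dnTCF4 libraries lay above both control libraries. Of 1341 genes with a peak in these reduced lists, 3.28% had that order and 9.62% had the opposite order without overlap. The order describes 2 against 3 libraries, without a test, and with the lists as deposited the groups overlapped.

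Spint1 (gene ID 20732, chromosome 2, 119237360 to 119249535, forward strand) had peaks in control 3, control 4, dnTCF4 1, dnTCF4 3 and dnTCF4 4. Its covered share was 15.4% and 9.97% in control 3 and 4 and 0 in control 1 and 2. In dnTCF4 libraries it was 9.18%, 0, 13.6% and 4.66% in the order 1 to 4. The means were 6.35 ± 7.67% and 6.85 ± 5.84% (SD, n = 4 each), and the groups overlapped. Their difference of 0.498 percentage points was smaller than either SD and changed sign in 8 of 15 alternatives, from -2.84 (window extended by 5 kb) to 3.53 (without control 3). Among the libraries, leaving out control 1 or control 2 gave -1.62, dnTCF4 1 gave -0.279 and dnTCF4 3 gave -1.74.

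The Spint1 peaks flanked the start and left it bare. The upstream stretch ran from -4.25 to -0.656 kb relative to the start (119233106 to 119236704) and had a peak in all 5 libraries, with a shared core of 520 bases from -1.90 to -1.38 kb. The stretch inside the gene ran from 1.27 to 2.63 kb (119238628 to 119239989) and had a peak in 4 of them, all but dnTCF4 4. The 300 bases of the promoter window printed above were covered by 0 bases of peak in every library. Among all promoters with a peak within 2 kb of the start, a peak touched that window at 19.7% in control 3, 14.1% in control 4, 13.2% in dnTCF4 1, 9.03% in dnTCF4 3 and 4.41% in dnTCF4 4, so a bare window is common among such promoters. At Epcam, peaks covered all 300 bases in control 3 and dnTCF4 1 and 0 in the other 6 libraries.

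The widest peak at any of the 6 genes was the upstream Spint1 peak of control 3, at 3393 bp, wider than 96.1% of that list and with a fold enrichment of 3.50. The matching peak of dnTCF4 3 was 1835 bp wide, wider than 96.3% of its list, with 4.43. That of dnTCF4 4 was 806 bp wide with 4.80. Of the 9 Spint1 peaks 7 exceeded the median fold of their list, and 2 had a −log10 q of at least 2. The lower neighbour Ppp1r14d, 7.28 kb away, had peaks in control 3 (5.94% covered), control 4 (3.57%) and dnTCF4 1 (2.81%), and the upper neighbour Rhov had none. Chromosome 2 held 6.77% to 15.8% of the covered length of control lists and 7.59% to 30.1% of dnTCF4 lists, where it makes up 6.92% of the annotated length. With the chromosome 9 block set aside these were 11.9% to 16.1% and 21.4% to 32.5%, and the part of the chromosome in the Spint1 values was not tested.

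Spint2, the second Kunitz inhibitor (gene ID 20733, chromosome 7, 29256330 to 29282059, reverse strand), differed from Spint1. It had a peak in dnTCF4 1 alone, with 3.49% of its window covered and 0 in the other 7 libraries. Its 2 peaks, 863 and 175 bp wide, were interior, with fold enrichments of 3.33 and 3.28 that exceeded 22.6% and 13.7% of that list. Control 3, the longest list, had none here, and its nearest peak lay 117 kb below the window. The neighbours 2200002D01Rik and Ppp1r14a had no peak in any library. Chromosome 7, which makes up 5.52% of the annotated length, held 0.345% to 2.00% of the covered length of control lists and 0.706% to 1.94% of dnTCF4 lists outside that block.

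St14, the gene of matriptase (gene ID 19143, chromosome 9, 31088590 to 31131811), was covered to 7.67% in control 3, 0.426% in control 4 and 3.19% in dnTCF4 1, and to 0 in the other 5 libraries. The groups overlapped, with means of 2.02 ± 3.77% and 0.797 ± 1.59% (SD, n = 4 each). Their difference of -1.23 percentage points turned to 0.655 without control 3 and to 0.359 in the 5 lists of equal length. The shared stretch was interior, from 28.0 to 29.6 kb above the lower end (31116558 to 31118203). Control 3 and dnTCF4 1 also had peaks just above the higher end, from 43.9 to 45.3 kb and from 44.8 to 45.1 kb. None of the 8 St14 peaks lay at the lower end. The strongest, in dnTCF4 1, had a fold enrichment of 4.18, above 94.6% of that list. Its neighbours Zbtb44 and Aplp2 had no peak in any library. Chromosome 9, which makes up 4.73% of the annotated length, held 2.76% to 43.0% of the covered length of control lists and 3.19% to 66.9% of dnTCF4 lists. Outside its first 10 Mb, which do not hold St14, it held 0% to 2.34% and 0% to 1.72%. These lie below 4.73% in every library, but that share counts the whole chromosome with its first 10 Mb.

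Cdh1, the gene of E-cadherin (gene ID 12550, chromosome 8, 106603350 to 106670247), was covered thinly and only in the 3 longest lists. The share was 5.09% in control 3, 1.78% in control 4 and 1.39% in dnTCF4 1, and 0 in the other 5 libraries. Means were 1.72 ± 2.40% for control and 0.349 ± 0.697% for dnTCF4 (SD, n = 4 each), and the groups overlapped. The difference of -1.37 percentage points shrank to -0.244 without control 3 and was -1.94 without control 1 or control 2, and without dnTCF4 1 no dnTCF4 library had a peak. Against the covered share of the annotated genome, the ratio was 2.54, 2.87 and 2.21 in these libraries, where that of Epcam was 22.1, 38.4 and 59.6. Among marked genes Cdh1 ranked 2378th of 4344, 1767th of 2696 and 2087th of 2962.

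What the 3 libraries shared at Cdh1 was its lower end. A stretch from -1.68 to -0.568 kb relative to it (106601674 to 106602782) had a peak in each, with a common core of 726 bases. Control 3 and dnTCF4 1 had a peak between 1.15 and 1.96 kb inside the gene, and control 3 and control 4 had peaks between 2.41 and 2.90 kb. No peak lay from -0.568 to 1.15 kb, so the gene boundary within the lower end was bare here, as at Spint1. Control 3 had 4 further peaks, from 47.0 kb to 69.6 kb. The 2 peaks of dnTCF4 1, with fold enrichments of 3.31 and 3.32, exceeded 18.1% and 20.5% of that list, and 5 of all 11 Cdh1 peaks exceeded the median fold of their list. Of the 11 peaks 1 had a −log10 q of at least 2, and in the 5 lists of equal length Cdh1 had none. Chromosome 8 held 3.35% to 7.04% of the covered length of control lists and 0.924% to 3.35% of dnTCF4 lists, where it makes up 4.91% of the annotated length. With the chromosome 9 block set aside these were 5.88% to 7.41% and 2.281% to 3.40%, and the part of the chromosome in the Cdh1 values was not tested.

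Cdh3, the gene of P-cadherin (gene ID 12560, chromosome 8, 106510852 to 106556911), lies 46.4 kb below Cdh1. Its single peak, in control 3, was 182 bp wide, stood from -0.844 to -0.663 kb relative to the lower end, and covered 0.364% of the window. With the gene body alone it had none. Between the windows of Cdh3 and Cdh1 only control 3 had a peak, of 217 bp. The other neighbours, Zfp90 below Cdh3 and Tango6 above Cdh1, had none in any library.

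**Figure D4:**
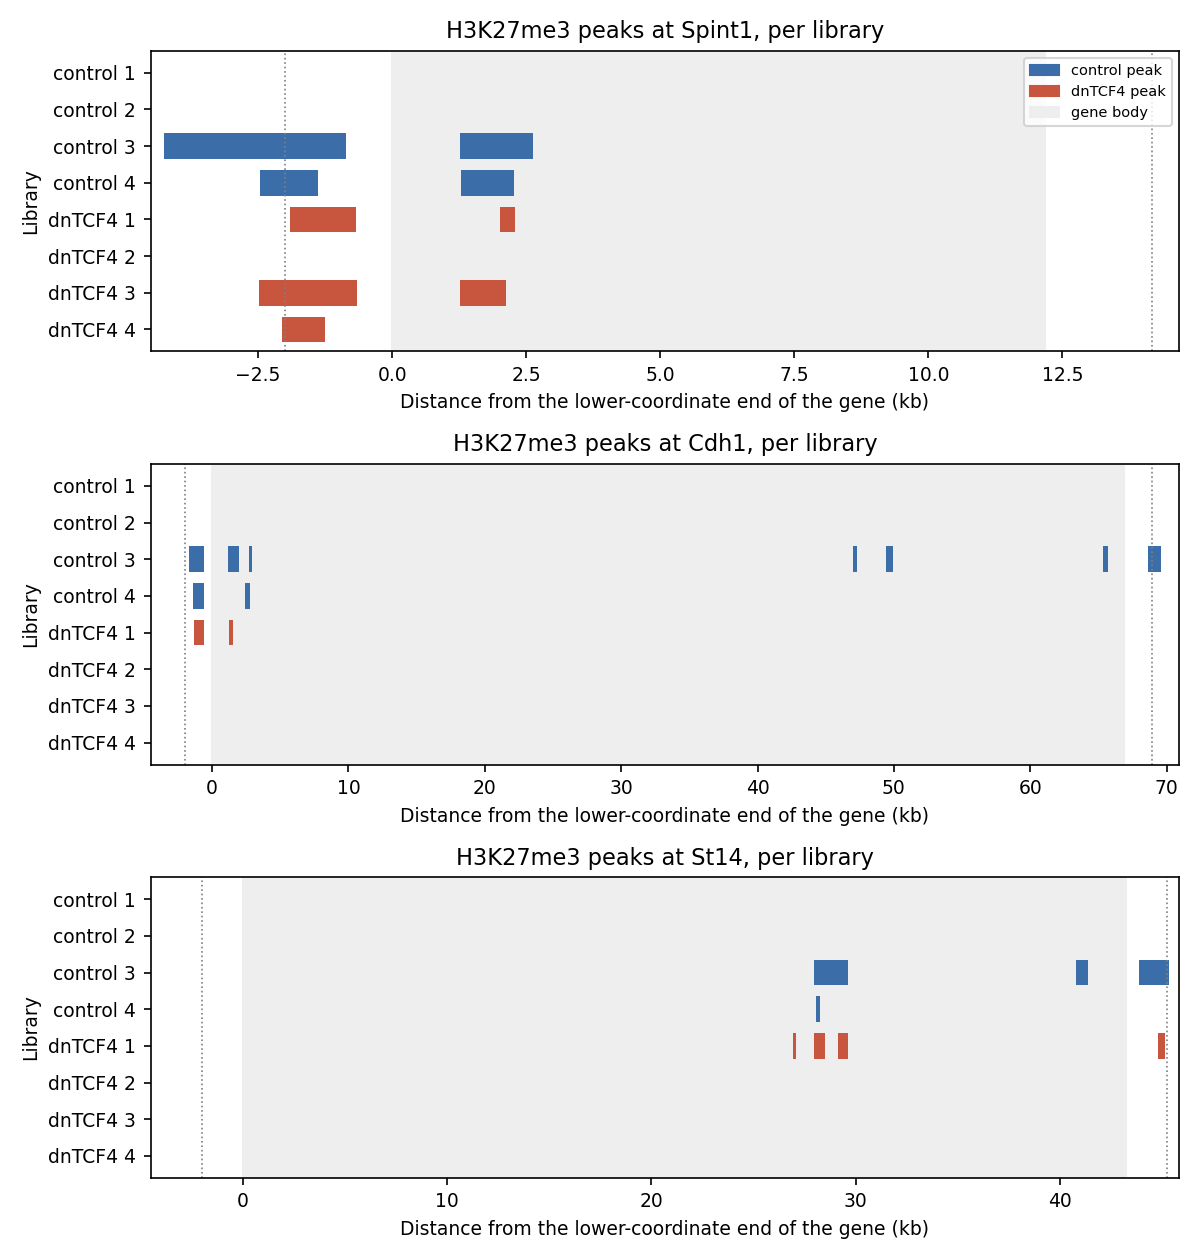
H3K27me3 peaks at Spint1, Cdh1 and St14 in each library. The x axis is the distance in kb from the lower-coordinate end of each gene, grey marks the gene body and dotted lines the window of 2 kb on each side, and bars are the deposited peaks of control (blue) and dnTCF4 (red) libraries. Peaks stand on both sides of the lower gene boundary of Spint1 and Cdh1 and leave the boundary itself bare. At St14 the stretch near 28.0 kb is shared by control 3, control 4 and dnTCF4 1.

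In order of libraries with a peak and mean covered share, the genes ran from Epcam over Spint1 to St14 and Cdh1, with Spint2 and Cdh3 last. St14 and Cdh1, in the same 3 libraries, did not differ beyond their spread, nor did Spint2 and Cdh3 with 1 library each. Within control 3, where 5 of the 6 were marked, the covered share was 44.3% at Epcam, 15.4% at Spint1, 7.67% at St14, 5.09% at Cdh1 and 0.364% at Cdh3. In dnTCF4 1 it was 37.7% at Epcam, 9.18% at Spint1, 3.49% at Spint2, 3.19% at St14 and 1.39% at Cdh1. Over the 6 genes 56 peaks were found, of which 29 were interior, 20 at ends and 7 in both. Each group had 28, drawn from lists of very unlike length. Control 3 gave 18 and control 4 gave 8, and dnTCF4 1 gave 15. The equal totals therefore do not compare the groups.

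Other genes of the same systems were taken from a list of 50. Of these, 13 had a peak in at least 1 library, near the 21.4% of all genes that did. The counts by group are small, and none is called particular to its group. All 10 catenins and nectins of the adherens junction had none, among them Ctnnb1, the gene of beta-catenin, and Ctnna1, which links it to actin. Of 16 other cadherins 6 had a peak and 3 had peaks in at least 3 libraries. Cdh22 had peaks in all 8, with covered shares from 0.334% (dnTCF4 2) to 20.7% (control 3), and so had Cdh13, from 0.0135% to 2.40% over a gene of 1185 kb. Cdh4 had peaks in 2 libraries of each group, covering at most 0.209% of its window (dnTCF4 1, where 0.632% of the annotated genome was covered). In each of these libraries its covered share was below that of the annotated genome. Cdh2, the gene of N-cadherin, had none.

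Among the membrane partners of EpCAM, Cldn7, a claudin that binds it, was covered to 15.4% in control 3, to 3.21% in dnTCF4 1 and to 0 elsewhere. Of 10 membrane serine proteases and relatives, 3 had peaks, each in at least 3 libraries: Tmprss6 in 5, Tmprss2 in 4 and Hgfac, the HGF activator, in 3. Prss8, the gene of prostasin, which works with matriptase, had none. Of 9 protease substrates and receptors, the sodium channel subunits Scnn1b (3 libraries) and Scnn1g (1 library) had peaks, and Hgf, Met and F2rl1 had none. Per library the list of 50 had 2, 2, 12 and 9 genes marked in control 1 to 4 and 8, 2, 6 and 3 in dnTCF4 1 to 4, to be read against the shares of all genes given above for each library.

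The genes whose covered shares over the 8 libraries were most like those of each gene were found by Bray-Curtis similarity, which is 1 for equal values. For Epcam these were Ccm2l (0.896), Hoxc11 (0.881) and Tmco5b (0.878), which had peaks in 5, 5 and 6 libraries and none in dnTCF4 2. For Spint1 they were Tmem74b (0.874), Fermt1 (0.865), which encodes an integrin adaptor of epithelia, and Tmem114 (0.862). For Cdh1 they were Kcnk13 (0.976), Adamts12 (0.971) and Cmah (0.965), and for St14 Camkv (0.959), Arhgef37 (0.957) and Gmnc (0.953). All genes share the 8 lists and their lengths, which enter every one of these values.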

How the data were processed

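The deposited files are 1 peak list per H3K27me3 library, 8 in all, with no header. The submitters' processing notes name mm10 and, in no stated order, MACS2 2.1.2, bedtools 2.28.0, Bowtie2 2.3.4.1, SAMtools 1.2, Picard 2.20.2, cutadapt and Trim Galore. Which settings were used, and against which background peaks were called, is not given in the sources used here. Each deposited peak name carries the name of 1 library, and each file was treated as called on that library. The deposited score is close to 10 times the −log10 q. The deposited fold enrichment is the authors' ratio of each peak over background, and the deposited −log10 p and −log10 q values are also theirs. They served for description, ranking and filtering inside each list only. Windows came from RefSeq gene ends (GRCm38.p6). Computation used Python 3.11.15, numpy 2.4.6 and pandas 2.3.3.

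Covered share was tested per gene, over all protein-coding genes with a peak, with a two-sided exact permutation test over libraries and Benjamini-Hochberg adjustment. The coverage and test code was tested on simulated data. Alternatives were a −log10 q minimum of 2, windows of 0, 1 and 5 kb, a 10% coverage minimum, lists of equal length, scaling, Fisher's exact test, the replicate block, and leaving out each library. The genes named are the 6 members, their nearest neighbours (1 is not reported here), partners with peaks in at least 3 libraries, and the 3 most similar genes of each member with at least 3; Cldn7, Scnn1g and the unmarked partners were named after their values were seen. The members and lists were chosen with earlier results of these data known.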

Additional observations from a re-analysis of the deposited data

Results flagged for a closer look

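Within the 4 libraries of a group, 5 values stood far from the rest by Dixon's criterion (the gap to the nearest library over the whole range), out of 10 gene and group combinations with any peak. Chance flags about 1 in 20 groups, and a group with 3 libraries at 0 is always flagged. The values were the covered share of Cdh1 (1.39%), Spint2 (3.49%) and St14 (3.19%) in dnTCF4 1, each against 0 in the other 3 dnTCF4 libraries. The others were Cdh3 in control 3 (0.364%, against 0) and St14 in control 3 (7.67%, next highest 0.426%). Both libraries hold the longest list of their group, with 54070 and 21492 peaks.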

How the results depend on the processing

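Gene and library pairs marked numbered 11 in control and 10 in dnTCF4 libraries, sums that do not compare the groups. They were 5 and 5 under a −log10 q minimum of 2, 3 and 4 with windows covered to at least 10%, 0 and 1 with all lists cut to the length of the shortest, and 3 and 6 with the 5 longer lists at equal length. Leaving out a library gave 6 to 11 in control and 5 to 10 in dnTCF4. With all 8 lists cut to 191 peaks, 1 library had a peak at Epcam, and 20 genes with a peak in all 8 libraries became 5. That count was 6 under the minimum of 2, 3 with windows covered to at least 10%, 31 without control 1 and 67 without dnTCF4 2. The cause was not tested, beyond that cut lists and higher minimums hold fewer peaks.

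The number of genes called between groups was 0 in every alternative run, including the replicate block, an exact sign-flip over the 4 pairs whose smallest p is 0.125. The labels do not say what a replicate number shares, so the numbers were not taken as pairs. Same-numbered libraries deviated with correlations of -0.774, 0.765, -0.248 and -0.502. List lengths enter these values, so they cannot say whether a number marks a shared culture or batch. The covered share differences changed sign in 4 of 15 alternatives at Epcam, 8 at Spint1 and 2 at St14. With the lists as deposited, these 3 differences are smaller than the SD of either group. Unknown sequencing depth limits every absence of a peak.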

Other observations

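The 20 genes with a peak in all 8 libraries were Rbfox3, Nipal2, Mroh5, Grap2, Galnt6, Scn8a, Krt77, Dnah8, H2-Q1, Tmem178, Epcam, Plcb2, Cdh22, Myo1h, Cdh13, Mmp1a, Mmp8, Mmp20, Mmp7 and Cep126. They were named after the values were seen. On chromosome 15 lay 6 of them, on chromosome 9 lay 5, of which 4 are matrix metalloproteinase genes, and on chromosome 17 lay 4. By mean covered share over the 8 libraries Epcam had 18.1%, Cdh22 7.50% and Cdh13 0.501%. The keratin gene Krt77 had 24.1% and Galnt6, which encodes an enzyme of mucin-type glycosylation, 7.29%.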
